A study of Mus musculus with 12 samples.

Results

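The 10 genes described here encode the hyaluronan-binding lecticans Ncan, Bcan, Vcan and Acan, the receptor phosphatase Ptprz1, the tenascins Tnc and Tnr, and the link proteins Hapln1, Hapln2 and Hapln4. They were chosen by symbol from the 24421 genes of the series, by what they encode and not by a threshold on expression. All 10 were tested, although some passed the filter on low values only through the time points at which they were high, so that passing it is no result. RNA came from GFP-positive cells that had been sorted by flow cytometry from the cerebellum of Aldh1l1-GFP reporter mice, in which the Aldh1l1 promoter drives GFP in astrocytes, and 3 libraries were sequenced at each of postnatal days P1, P7, P14 and P28. The methods place all mice on the C57/BL6J background, with both sexes used. No library lacked the reporter, so the reporter itself has no control here. The labels do not say whether the libraries of a time point came from separate animals, and all p-values measure the spread between these libraries, which may be technical.

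Lecticans are large chondroitin sulfate proteoglycans that bind hyaluronan with one end and tenascins with the other. Link proteins clamp the lectican to the hyaluronan chain. In the brain this network fills the space between cells, changes its make-up as the tissue matures, and condenses into perineuronal nets around some neurons and around nodes of Ranvier. Ptprz1 shares the chondroitin sulfate chains of the lecticans, and its secreted form, phosphacan, joins the same network.

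Values are normalized counts, that is, reads per gene divided by 1 size factor per library, with between 6399499 and 14733985 reads on genes per library. All 10 astrocyte markers examined were present in every library, and their summed level was 55911 to 72398 normalized counts for P1, 27433 to 50964 for P7, 144083 to 180819 for P14 and 337587 to 393433 for P28. Transcripts of other cell types were present as well. The summed level of 8 oligodendrocyte markers, among them Mbp, Mog and Cnp, was 1327 to 2156 in the P1 libraries, 15022 to 23073 in those of P7, 163654 to 260366 in those of P14 and 83387 to 114815 in those of P28. It exceeded the astrocyte marker sum in each P14 library, narrowly in replicate 1 (163654 against 163244), and in no other library. In these bulk samples fewer cells of a type and less RNA per cell cannot be told apart. P7 replicate 2 stood apart from the other P7 libraries, with the fewest reads of the series, an astrocyte marker sum of 27433 against 47316 and 50964, a mural cell and fibroblast marker sum of 14529 against 5761 and 8373, a choroid plexus marker sum of 127208 against 47740 and 60694, and an endothelial marker sum of 3849 against 519 and 873. P1 replicate 2 likewise had the highest endothelial sum of P1 (1219 against 182 and 345) and the highest mural cell and fibroblast sum (17927 against 10346 and 4196). That library also had the lowest Vcan and Tnc and the highest Hapln2 of P1. The choroid plexus sum was 273 to 751 at P1 and 47740 to 127208 at P7, and spread from 877 to 108741 at P14 and from 17738 to 182142 at P28.

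The sequences around the starts of 3 of the genes are shown because their levels took different courses: Ncan had the largest called fall of the 10 genes, Bcan made up the largest share of lectican transcript at P28, and Hapln2 had the largest rise of the 10 genes. Each is the RefSeq promoter window (GRCm38.p6) from 250 bases before to 50 bases after the annotated start, written 5′ to 3′ on the strand of the gene. The Ncan window lies at chr8:70120795-70121094, the Bcan window at chr3:88000307-88000606 and the Hapln2 window at chr3:88027462-88027761, all on the minus strand. Capitals mark matches, on either strand, to the letters TTGGCA (an NFI core), ACAATG (a SOX core), CAGCTG (an E-box), TATAAA (the TATA box) and GGGCGG (an SP1 box).
Ncan: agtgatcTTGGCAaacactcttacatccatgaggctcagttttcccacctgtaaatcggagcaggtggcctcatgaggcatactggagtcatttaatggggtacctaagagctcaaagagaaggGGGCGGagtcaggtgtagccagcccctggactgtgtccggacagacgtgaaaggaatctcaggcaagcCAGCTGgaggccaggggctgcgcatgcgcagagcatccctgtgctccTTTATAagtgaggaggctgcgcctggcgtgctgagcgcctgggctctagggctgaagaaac
Bcan: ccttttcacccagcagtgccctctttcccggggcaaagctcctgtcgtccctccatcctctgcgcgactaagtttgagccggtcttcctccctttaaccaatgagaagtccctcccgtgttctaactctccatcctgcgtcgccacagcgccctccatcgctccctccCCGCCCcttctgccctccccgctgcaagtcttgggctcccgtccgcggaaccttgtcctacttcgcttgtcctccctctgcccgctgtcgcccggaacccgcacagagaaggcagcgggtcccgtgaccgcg
Hapln2: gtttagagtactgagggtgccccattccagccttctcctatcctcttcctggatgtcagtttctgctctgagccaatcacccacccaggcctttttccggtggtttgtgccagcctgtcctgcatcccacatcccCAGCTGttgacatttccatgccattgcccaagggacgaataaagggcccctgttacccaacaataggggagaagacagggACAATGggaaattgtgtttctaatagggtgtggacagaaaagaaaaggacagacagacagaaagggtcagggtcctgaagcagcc
The Ncan window held 4 kinds of match, namely the NFI core, the SP1 box, the E-box and the TATA box. The Bcan window held the SP1 box alone but had 24 CpG dinucleotides against 9 for Ncan and 2 for Hapln2. The Hapln2 window held the SOX core and the E-box and had a GC content of 52.0%, against 56.7% for Ncan and 64.0% for Bcan. RefSeq windows were matched for 9 of the 10 genes, all but Hapln4. Of these 9 genes, 2 held the NFI core, 1 the SOX core, 3 the E-box, 2 the TATA box and 6 the SP1 box, against 14.1%, 12.6%, 16.3%, 13.6% and 35.7% of the 32851 windows in the table. A match describes the letters of the window and does not show that a factor binds there.

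At P1 the transcripts of Ncan, Ptprz1, Tnc, Bcan and Vcan, but not those of Acan, were among the most abundant of the sorted cells. Ranked by mean normalized counts per kilobase of exon over 23350 genes with a length, Ncan stood at rank 13, Ptprz1 at 31, Tnc at 51, Bcan at 104 and Vcan at 305. At P28 Ptprz1 stood at rank 74, Bcan at 188, Tnc at 285, Ncan at 679 and Vcan at 1086. Tnr never came above rank 3287, which it reached at P14, and the best ranks of Acan, Hapln1 and Hapln4 were 13585 at P1, 10394 at P14 and 11217 at P1. The 10 genes together took 1.67% to 1.94% of all reads for P1, 0.444% to 0.789% for P7, 0.390% to 0.460% for P14 and 0.630% to 0.694% for P28.

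**Figure D1:**
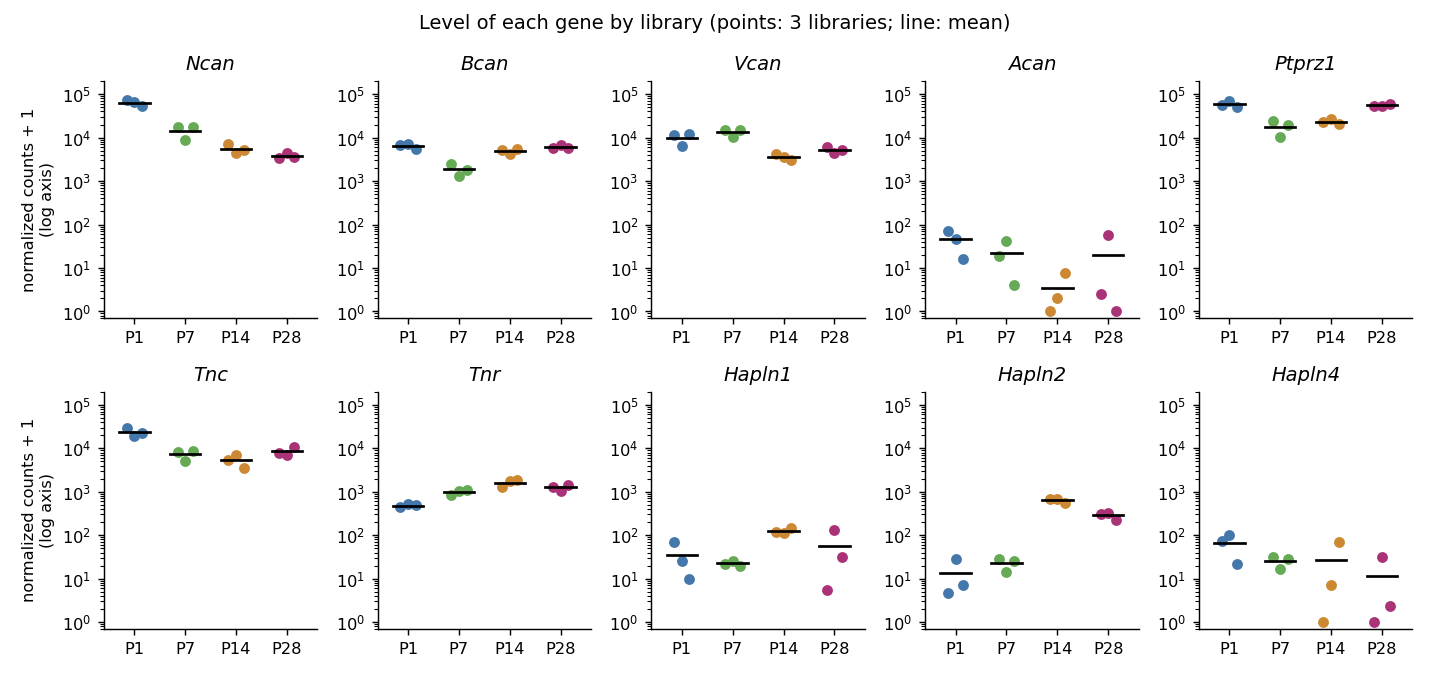
Normalized counts plus 1, on a log axis, of the 10 genes at P1, P7, P14 and P28; points are the 3 libraries of a time point and the line is their mean. Ncan steps down from P1 onwards, Bcan and Ptprz1 dip at P7 and return, Vcan is highest at P7, Tnr rises to P14, Hapln2 is low at P1 and P7 and rises steeply at P14, and Acan and Hapln4 are low throughout, with widely spread libraries at P14 and P28.

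From P1 to P7, 1 of the 10 genes rose (Tnr) and 4 fell (Ncan, Bcan, Ptprz1 and Tnc), where 3.47% of the 15464 genes tested rose and 4.24% fell. In P7 replicate 2 Ncan, Bcan, Vcan, Ptprz1 and Tnc were each lowest of P7, and without it the log2 fold changes were -1.58 for Bcan, -1.43 for Ptprz1 and -1.47 for Tnc, all still called. At the same step 6 of the 10 astrocyte markers fell, among them Fgfr3 (5.14-fold), Aldoc (4.90-fold), Aldh1l1 (3.49-fold) and Sox9 (2.52-fold), while Gfap rose 2.28-fold. The mean oligodendrocyte precursor sum went from 9756 to 4647 and the mean choroid plexus sum from 526 to 78547, and the part of these in the 4 falls was not tested. A gene is called here at an adjusted p under 0.05, with limma and the Benjamini-Hochberg adjustment over all genes tested. From P7 to P14, 3 rose (Tnr, Bcan and Hapln2) and 2 fell (Ncan and Vcan), against 10.8% and 10.0% of all genes. From P14 to P28, 1 rose (Ptprz1) and 0 fell, against 5.68% and 8.76%. Of the genes lower at P28 than at P14, Hapln1 alone had an unadjusted p under 0.05, and edgeR and DESeq2 on whole reads also called 0 of the 10 lower. Scaling by library totals alone called Ncan (-0.77, adjusted p = 0.0470) and Tnr (-0.60, adjusted p = 0.0493) lower. Over the whole interval from P1 to P28, 2 were higher (Tnr and Hapln2) and 3 were lower (Ncan, Vcan and Tnc), against 14.6% and 20.0%. The remaining pairs of time points, P14 against P1 and P28 against P7, served the order of the levels, and 20.4% and 39.2% of all genes were called there in either direction. The median log2 fold change of the 10 genes was -1.24 from P1 to P7, where that of all genes tested was 0.04. It was -0.02 at each of the next steps, where all genes had medians of -0.09 and -0.12. Scaling by library totals alone turned the balance of calls over all genes from 1676 higher and 1551 lower to 1203 and 2446 for P14 against P7, from 878 and 1354 to 456 and 1936 for P28 against P14, and from 2264 and 3086 to 1368 and 5132 for P28 against P1.

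**Figure D2:**
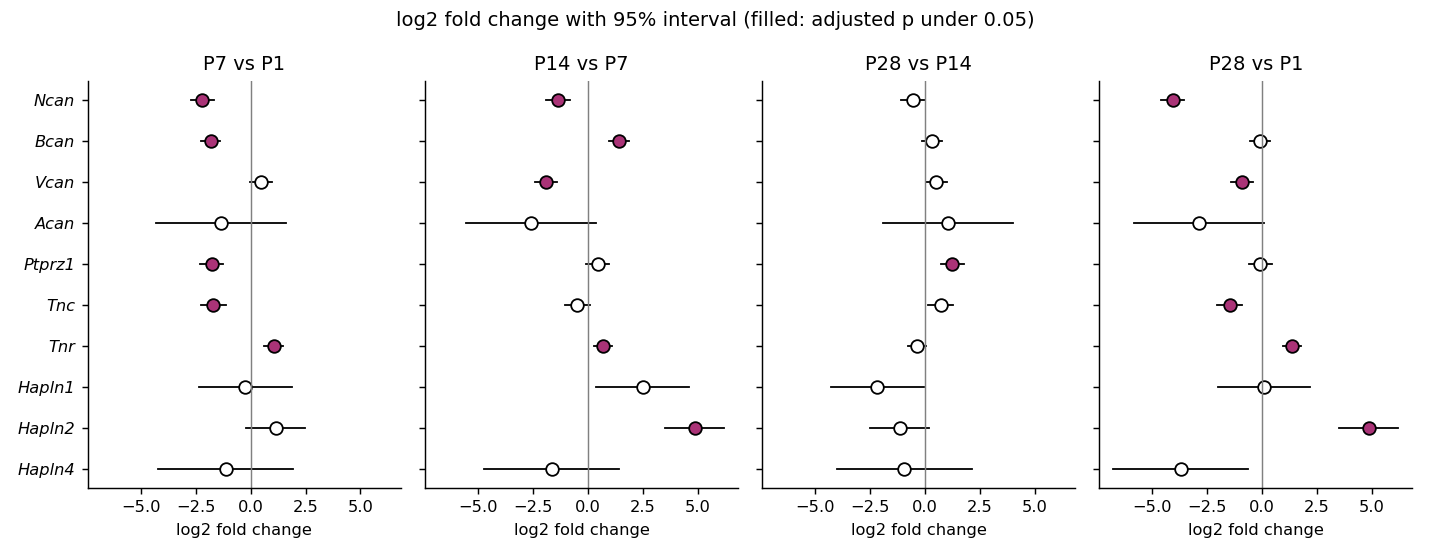
The log2 fold change of each gene between time points, with its 95% confidence interval, which is not adjusted for the number of genes; filled points have an adjusted p under 0.05. The 4 falls lie together between -1.70 and -2.19 from P1 to P7, after which Ncan falls again and Vcan falls while Bcan, Tnr and Hapln2 rise, and the intervals of Acan, Hapln1 and Hapln4 are several times wider than those of the abundant genes.

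Ncan encodes neurocan, the lectican most typical of the immature brain (chr8:70093085-70120873, minus strand, GRCm38). Its normalized counts were 71882, 65443 and 53445 in the P1 libraries, 17324, 8732 and 17450 in those of P7, 7140, 4366 and 5068 in those of P14 and 3310, 4475 and 3536 in those of P28. The libraries of P1, P7 and P14 did not overlap, while 1 P28 library lay above the lowest P14 library. Ncan fell 4.57-fold from P1 to P7 (log2 fold change -2.19 ± 0.25 SE, adjusted p = 1.33e-04) and a further 2.56-fold to P14 (-1.35 ± 0.25, adjusted p = 0.00159). The P28 level was not distinguishable from that of P14 (adjusted p = 0.177), and the whole interval gave a 16.9-fold lower level (-4.08 ± 0.25, adjusted p = 4.30e-08). Without P7 replicate 2 the first step had a log2 fold change of -1.86 and the next of -1.69, both called. Its means ran in the order P1, P7, P14 and P28, in which only the neighbours P14 and P28 had no called difference.

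Bcan encodes brevican, the shortest lectican and a component of mature perineuronal nets, in secreted and membrane-anchored forms that gene-level values do not separate (chr3:87987531-88000230, minus strand). Its 3 libraries had 6664, 7200 and 5373 normalized counts for P1, 2471, 1289 and 1822 for P7, 5052, 4097 and 5357 for P14 and 5628, 6803 and 5685 for P28. All P7 libraries lay below all others, and the P28 libraries lay within the range of P1. Bcan fell 3.54-fold from P1 to P7 (-1.82 ± 0.21, adjusted p = 1.33e-04) and rose 2.67-fold from P7 to P14 (1.42 ± 0.21, adjusted p = 2.45e-04). P28 and P1 differed by -0.08 on the log2 scale, with a 95% interval from -0.53 to 0.37 (adjusted p = 0.791). The order of its levels was P1, P28, P14 and P7, in which only the difference between the neighbours P14 and P7 was called. The P28 libraries lay above those of P14, but that difference was not called (adjusted p = 0.326).

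Vcan encodes versican, whose splice forms carry different chondroitin sulfate regions and are summed here (chr13:89655312-89742509, minus strand). It had 11305, 6549 and 12233 normalized counts in the P1 libraries, 15293, 10330 and 15145 in those of P7, 4191, 3587 and 3087 in those of P14 and 6037, 4396 and 5219 in those of P28. It was thus the only lectican whose highest mean was at P7, 13589 ± 2824 (SD, n = 3), although the P1 and P7 libraries overlapped and the difference was not called (adjusted p = 0.302). From P7 to P14 it fell 3.72-fold (-1.90 ± 0.23, adjusted p = 4.90e-05). At P28 it was 1.87-fold below P1 (-0.90 ± 0.23, adjusted p = 0.00808). The order was P7, P1, P28 and P14, in which only the difference between the neighbours P1 and P28 was called. The P28 libraries lay above those of P14, but that difference was not called (adjusted p = 0.144). The summed level of 6 GABAergic interneuron markers was also highest at P7, at 4191 to 9597 against 527 to 3270 at P1 and 521 to 595 at P14. Within that list Pvalb rose 8.04-fold from P7 to P14 (adjusted p = 0.00495), while the other markers fell, all called. The granule neuron precursor sum was likewise highest at P7, at 9786 to 10561 against 2068 to 4307 at P1 and 6199 to 9602 at P14. The part of either sum in the Vcan result was not tested. The 8 oligodendrocyte precursor markers had their sum lowest at P28 (2747 to 3232) and next lowest at P7 (4393 to 5094), with 7939 to 9017 for P14. These markers did not move alike. Between P7 and P14, Pdgfra fell 1.79-fold (adjusted p = 0.0276), after a 2.78-fold fall in the step before. Over the same interval Olig1 rose 4.83-fold, Sox10 3.98-fold and Gpr17 2.03-fold, all called. The part of oligodendrocyte precursors in the Vcan result was not tested either.

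Acan encodes aggrecan, the lectican of cartilage and of the perineuronal nets that neurons assemble (chr7:79053483-79115099, plus strand). It was low, with 71.4, 46.4 and 15.1 normalized counts for P1, 18.3, 41.9 and 3.10 for P7, 0, 1.06 and 6.52 for P14 and 1.46, 56.6 and 0 for P28. Its libraries overlapped between neighbouring time points, and none of the 4 comparisons was called. From P1 to P28 the log2 fold change was -2.87 ± 1.38 (adjusted p = 0.122). This value depended on single P28 libraries, being -4.60 without replicate 2 (adjusted p = 0.00913) and -1.68 without replicate 3 (adjusted p = 0.368). P28 replicate 2 also had the highest Hapln1 and Hapln4 of P28 and the highest choroid plexus marker sum, 182142 against 17738 and 104365. At P14 the reverse was seen. P14 replicate 3 had the highest Acan, Hapln1 and Hapln4 of P14 but the lowest choroid plexus sum, 877 against 63304 and 108741. The part of choroid plexus transcripts in these values was not tested.

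The balance among the lecticans shifted from Ncan to Bcan. Per kilobase of exon, their sum was 11115 ± 1424 normalized counts at P1 (SD, n = 3), 3416 ± 1012 at P7, 2208 ± 332 at P14 and 2374 ± 203 at P28. Ncan made up 79.4% ± 1.7 of this sum in the P1 libraries, 58.3% ± 4.0 in those of P7, 34.5% ± 4.2 in those of P14 and 22.0% ± 1.8 in those of P28. Bcan held 14.2% ± 1.3 at P1 and 13.5% ± 1.8 at P7, then 54.1% ± 4.9 at P14 and 62.5% ± 1.5 at P28. Vcan held 6.37% ± 2.41 for P1, 28.1% ± 3.1 for P7, 11.4% ± 1.9 for P14 and 15.4% ± 3.4 for P28. Acan had under 0.30% in each library. Ncan was the largest lectican in every P1 and P7 library, and Bcan in every P14 and P28 library. The shares of Ncan, Bcan and Vcan did not overlap between P1 and P28, and are given as a description with no test. With the length of the longest transcript in place of all exons, Ncan held 75.4% at P1 and 18.2% at P28, and Bcan held 17.5% and 66.9%.

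**Figure D3:**
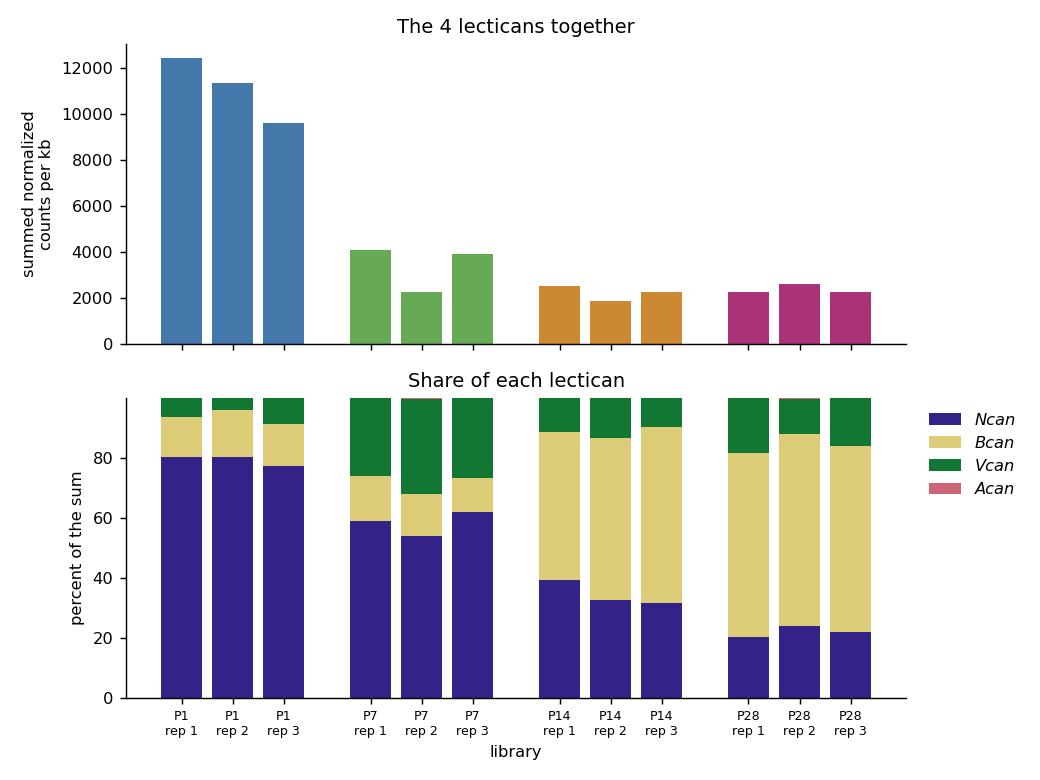
Top, normalized counts per kilobase of exon summed over Ncan, Bcan, Vcan and Acan in each of the 12 libraries; bottom, the percent of that sum held by each gene. The bars shrink from 9598 to 12422 at P1 to 1863 to 2525 at P14, and the Ncan segment gives way to Bcan between P7 and P14, with the widest Vcan segment at P7.

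Ptprz1 encodes a receptor-type tyrosine phosphatase that binds pleiotrophin, contactins and tenascins; its full-length, short and secreted forms are summed here (chr6:22875502-23052916, plus strand). It had 56326, 69209 and 50418 normalized counts in the P1 libraries, 24184, 10576 and 19178 in those of P7, 22757, 26546 and 20526 in those of P14 and 53110, 52117 and 60706 in those of P28. The P7 and P14 libraries overlapped and lay well below those of P1 and P28, which overlapped in turn. Ptprz1 fell 3.42-fold from P1 to P7 (-1.77 ± 0.24, adjusted p = 4.63e-04) and rose 2.38-fold from P14 to P28 (1.25 ± 0.24, adjusted p = 0.00470). P28 and P1 differed by -0.08, with a 95% interval from -0.59 to 0.44 (adjusted p = 0.832). Its order was that of Bcan, P1, P28, P14 and P7, but here the only called difference between neighbours was that of P28 and P14. Ptprz1 was the most abundant of the 10 genes per kilobase at P14 and P28, with 1634 ± 214 and 3883 ± 330 normalized counts per kilobase (SD, n = 3). Its exon length over all transcripts, 14245 bases, exceeds that of its longest transcript, 8068 bases, so the level per kilobase of that transcript is higher than these values.

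Tnc encodes tenascin-C, a matrix glycoprotein of radial glia and immature astrocytes (chr4:63959785-64047015, minus strand). The 3 libraries had 28815, 18674 and 22801 normalized counts for P1, 8107, 5090 and 8586 for P7, 5427, 6836 and 3471 for P14 and 7767, 6964 and 10835 for P28. Every P1 library exceeded every later one, and the P28 libraries lay above those of P14. Tnc fell 3.26-fold from P1 to P7 (-1.70 ± 0.27, adjusted p = 0.00127). From P14 to P28 its log2 fold change of 0.73 ± 0.27 was not called (adjusted p = 0.0811), and P28 remained 2.76-fold below P1 (-1.46 ± 0.27, adjusted p = 7.51e-04). Its levels ran in the order P1, P28, P7 and P14, in which only the difference between the neighbours P1 and P28 was called. Exons of Tnc share 176 bases with the antisense gene 8030451A03Rik, and the use of strand in the counting is not stated.

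Tnr encodes tenascin-R, the tenascin of the maturing brain, made by oligodendrocyte-lineage cells and some neurons and a partner of Bcan in perineuronal nets (chr1:159523769-159931729, plus strand). It had 436, 514 and 493 normalized counts in the P1 libraries, 852, 1047 and 1091 in those of P7, 1301, 1740 and 1827 in those of P14 and 1282, 1044 and 1447 in those of P28. The libraries did not overlap at the steps to P7 and to P14, and those of P28 overlapped both. Tnr rose 2.06-fold from P1 to P7 (1.04 ± 0.20, adjusted p = 0.00412) and was 2.59-fold above P1 at P28 (1.38 ± 0.20, adjusted p = 1.00e-04). The rise from P7 to P14 was 1.62-fold (0.70 ± 0.20, adjusted p = 0.0206). Its levels ran in the order P14, P28, P7 and P1, in which only the difference between the neighbours P7 and P1 was called. The call from P7 to P14 was lost without P7 replicate 1 (adjusted p = 0.105), without P14 replicate 2 (0.0759) or without P14 replicate 3 (0.0798), and with scaling by library totals alone (0.121). Of the summed Tnc and Tnr level per kilobase, Tnr held 1.28% ± 0.36 for P1, 8.05% ± 2.66 for P7, 16.7% ± 6.4 for P14 and 8.28% ± 0.80 for P28 (SD, n = 3). The oligodendrocyte marker sum was likewise lowest at P1 and highest at P14, and its part in the Tnr result was not tested. A stretch of 443 exonic bases of Tnr is shared with the antisense gene Gm38039.

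Hapln2 encodes a link protein found at central nodes of Ranvier, where it is laid down as axons are myelinated (chr3:88021750-88027583, minus strand). It had 3.69, 27.9 and 6.06 normalized counts at P1 and 27.9, 13.1 and 24.0 at P7, against 665, 695 and 536 at P14 and 314, 320 and 227 at P28. The libraries of P14 and P28 lay far above the earlier ones. Hapln2 rose 29.0-fold from P7 to P14 on the log2(value + 1) scale (4.86 ± 0.62, adjusted p = 7.11e-05) and was 28.9-fold above P1 at P28 (4.85 ± 0.62, adjusted p = 4.26e-05). The latter was 5.63 on the log2 scale without P1 replicate 2. P28 lay below P14 in all libraries, but with a log2 fold change of -1.14 ± 0.62 the difference was not called (adjusted p = 0.238). In the order P14, P28, P7 and P1 only the difference between the neighbours P28 and P7 was called. From P1 to P7 the change in Hapln2 was not called (1.14 ± 0.62, adjusted p = 0.367). The oligodendrocyte marker sum had its means in the same order, but with a larger rise from P1 to P7. Its mean was 1797 normalized counts in the P1 libraries, 17816 in those of P7, 204707 in those of P14 and 100369 in those of P28. The granule neuron marker sum was likewise highest at P14, and the part of these sums in the Hapln2 result was not tested. The gene most like Hapln2 over the 12 libraries was the myelin gene Cnp, itself among the oligodendrocyte markers.

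Hapln1 encodes the link protein of cartilage and of perineuronal nets (chr13:89539796-89611652, plus strand). Its normalized counts were 69.5, 24.3 and 9.09 for P1, 20.7, 24.9 and 18.6 for P7, 119, 113 and 144 for P14 and 4.38, 131 and 29.8 for P28. The P14 libraries lay above all those of P1 and P7, whereas the P28 libraries ran from below the lowest P1 library to within the range of P14. The step from P7 to P14 had a log2 fold change of 2.50 ± 0.98 (adjusted p = 0.0896). This step was called without P28 replicate 1 (adjusted p = 0.0245) or P28 replicate 2 (0.0335), and by DESeq2 on whole reads (0.0239), but not without any 1 of the other 10 libraries (0.0803 to 0.204). The step from P14 to P28, -2.17 ± 0.98 (adjusted p = 0.154), was -3.29 without P28 replicate 2 (adjusted p = 0.0234) and -0.98 without P28 replicate 1 (adjusted p = 0.432).

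Hapln4 encodes the link protein of cerebellar and brainstem nets, where it binds with Bcan (chr8:70083457-70090862, plus strand). It had 72.6, 98.6 and 21.2 normalized counts in the P1 libraries, 31.1, 15.7 and 27.9 in those of P7, 0, 6.35 and 69.5 in those of P14 and 0, 30.7 and 1.35 in those of P28. Single libraries decided the later means, P14 replicate 3 and P28 replicate 2. None of its 4 comparisons was called, the lowest adjusted p being 0.0589 for P28 against P1 (-3.70 ± 1.43). That comparison was called without P14 replicate 1 (adjusted p = 0.0354), without P14 replicate 3 (0.0334) or without P28 replicate 2 (-5.15, adjusted p = 0.0113), and was -2.66 without P28 replicate 1 (adjusted p = 0.183). No difference between neighbours in the order of levels of Acan, Hapln1 or Hapln4 was called.

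**Figure D4:**
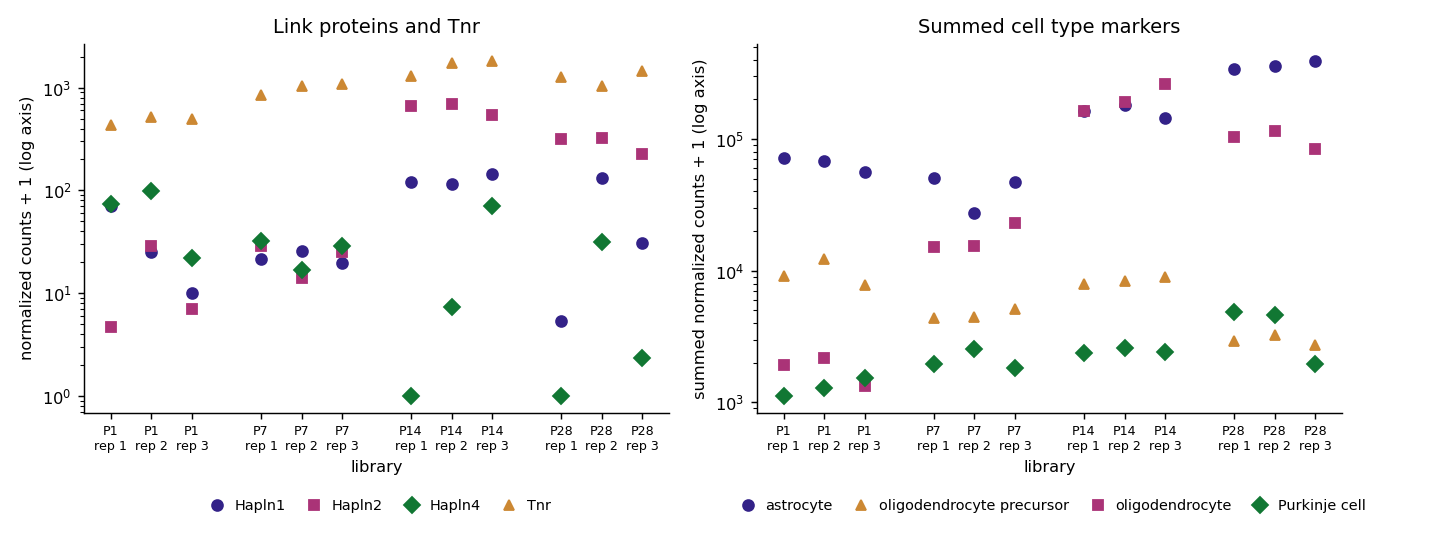
Left, normalized counts plus 1 of Hapln1, Hapln2, Hapln4 and Tnr in the 12 libraries; right, normalized counts plus 1 summed over the markers of astrocytes, oligodendrocyte precursors, oligodendrocytes and Purkinje cells; both axes are log axes. Hapln2 and the oligodendrocyte sum are both highest at P14, with 536 to 695 and 163654 to 260366 normalized counts, while Hapln1 and Hapln4 vary widely among the libraries of P28.

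Each lectican gene lies beside a link protein gene with 0 protein-coding genes between them. Ncan and Hapln4 lie 2222 bases apart with their ends facing, Acan and Hapln3 lie 2 bases apart with their ends facing, Bcan and Hapln2 lie 21519 bases apart on the same strand, and Vcan and Hapln1 lie 43659 bases apart. Within the first pair Ncan had 63590 ± 9357 normalized counts at P1 and Hapln4 had 64.1 ± 39.4 (SD, n = 3). Bcan and Hapln2 both rose from P7 to P14 but did so from different starts, since Bcan had fallen from P1 and Hapln2 had not been above 27.9 in any library. From P7 to P14 Vcan fell 3.72-fold while Hapln1 went from 21.4 ± 3.2 to 125 ± 17. Summed per kilobase, the link proteins including Hapln3 had 31.4 ± 18.3 normalized counts for P1, 23.6 ± 8.6 for P7, 294 ± 23 for P14 and 133 ± 32 for P28. Hapln2 held 90.3% ± 5.2 of that sum at P14 and 92.0% ± 9.1 at P28, while Hapln4 held the largest share at P1, 51.2% ± 2.5.

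The other genes of these families were low. Hapln3, a more widely made link protein, had 16.6, 19.3 and 5.30 normalized counts at P1, 33.4, 6.54 and 7.75 at P7, and 0 reads in all 6 libraries of P14 and P28. Pooled over the group, its level at P7 was 16.1-fold above the P14 floor, set at 3 reads over the group. At P1 the pooled level was 10.6-fold above the P28 floor. The falls by limma were 13.1-fold for P14 against P7 (adjusted p = 0.00541) and 13.1-fold for P28 against P1 (adjusted p = 0.00353). Without P7 replicate 1 the log2 fold change for P14 against P7 was -3.02 in place of -3.72 (adjusted p = 0.0365). Tnxb, the tenascin of connective tissue, had 583, 263 and 622 at P7 and 112, 9.52 and 53.2 at P14, an 11.4-fold fall (-3.51 ± 0.78, adjusted p = 0.00492). The size of that fall depended on P14, being -4.26 without replicate 1 and -2.55 without replicate 2. Tnn, tenascin-N, had no more than 25.5 normalized counts in any library and 0 at P28.

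Beyond the 10 genes, 82 genes of the same network and families were examined, of which 79 passed the filter. From P1 to P7, 4 of them rose and 17 fell, where 3.47% and 4.24% of all genes tested did. The next step had 15 that rose and 6 that fell (all genes 10.8% and 10.0%), the last had 11 and 6 (5.68% and 8.76%), and over the whole interval 18 were higher and 23 lower (14.6% and 20.0%). The first count was unsteady, as described with the processing alternatives.

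Of 15 tested genes of hyaluronan synthesis, binding and turnover, 4 ended higher and 4 lower at P28 relative to P1, where 14.6% and 20.0% of all genes did, with a median log2 fold change of -1.02 where that of all genes was -0.24. Hmmr, a hyaluronan receptor that also acts at the mitotic spindle, had 779, 1173 and 924 normalized counts at P7, then 91.1, 6.35 and 19.5 at P14, and 2.92, 0 and 1.35 at P28. Its fall to P14 was called (-5.30 ± 0.78, adjusted p = 2.19e-04), at -6.27 without P14 replicate 1 and -4.44 without P14 replicate 2. Cemip, which takes part in hyaluronan breakdown, rose 6.11-fold from P1 to P7 (2.61 ± 0.50, adjusted p = 0.00499), and Hyal1, a hyaluronidase of lysosomes, rose 2.80-fold from P7 to P14 (1.49 ± 0.33, adjusted p = 0.00480). Cd44, the main cell-surface receptor of hyaluronan, had 531, 405 and 302 at P14 and 1263, 1308 and 2357 at P28, a 3.91-fold rise (1.97 ± 0.28, adjusted p = 7.62e-04). Has3, a hyaluronan synthase, had 43.4, 7.41 and 114 at P14 and 0, 0 and 4.06 at P28, the last from 3 reads (adjusted p = 0.0108, and 0.0532 without P14 replicate 3). Ugp2, which makes UDP-glucose for the synthesis of the chain, and Tnfaip6, which binds hyaluronan, were the most abundant of the list per kilobase, and Ugp2 was 2.91-fold higher at P28 than at P1 (1.54 ± 0.17, adjusted p = 1.32e-05).

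Among 21 tested genes of chondroitin sulfate synthesis, 0 rose and 4 fell from P1 to P7, 4 rose and 1 fell to P14, 0 rose and 1 fell to P28, and over the whole interval 2 were higher and 6 lower. The shares over all genes at these steps were 3.47% and 4.24%, 10.8% and 10.0%, 5.68% and 8.76%, and 14.6% and 20.0%. The enzymes that place sulfate groups moved in different directions. Ust, which sulfates the uronic acid of the chain, had 336, 123 and 192 normalized counts at P1 and 1818, 1950 and 1727 at P28, a 9.14-fold rise (3.19 ± 0.31, adjusted p = 3.46e-06). Chst12, a chondroitin 4-O-sulfotransferase, rose 6.25-fold from P7 to P14 (2.64 ± 0.66, adjusted p = 0.00995). Chst3, the chondroitin 6-O-sulfotransferase, fell 3.74-fold from P1 to P7 (-1.90 ± 0.52, adjusted p = 0.0389), but this was lost when any 1 of the 6 libraries compared was left out, with adjusted p from 0.0514 to 0.176. Chst15, which adds the second sulfate of chondroitin sulfate E, fell 3.33-fold from P7 to P14 (-1.74 ± 0.53, adjusted p = 0.0302), and this too was lost without any 1 of the P7 libraries or without P14 replicates 2 or 3 (adjusted p from 0.0704 to 0.128). The chain-building enzyme Chsy3 had 16.9, 69.8 and 7.60 at P14 and 1 read over the 3 libraries of P28 (adjusted p = 0.00960). Chsy1, its more abundant relative, went from 1308 ± 297 at P1 to 700 ± 82 at P7 (SD, n = 3), a fall whose adjusted p of 0.0396 rose above the threshold without any 1 of P1 replicates 1 and 2, P7 replicates 1 to 3 and P14 replicate 1 (0.0529 to 0.190).

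Of 14 proteases that cut lecticans and their inhibitors, 1 rose and 4 fell from P1 to P7 (all genes 3.47% and 4.24%), and over the whole interval 3 rose and 3 fell (14.6% and 20.0%). Timp4, an inhibitor of metalloproteinases, had 925, 541 and 905 normalized counts at P7, 5550, 5815 and 5130 at P14, and 12092, 9696 and 13915 at P28. It rose 7.14-fold from P7 to P14 (2.84 ± 0.20, adjusted p = 5.69e-07) and was 9.21-fold above P1 at P28 (3.20 ± 0.20, adjusted p = 4.67e-08), the largest rise of the list. Timp3, the inhibitor that acts on lectican-cutting ADAMTS enzymes, fell 3.11-fold from P1 to P7 (-1.63 ± 0.19, adjusted p = 1.47e-04). Adamts4, an enzyme that cuts brevican and aggrecan, had 426, 510 and 729 at P14 and 29.2, 10.6 and 54.1 at P28, a 20.2-fold fall (-4.34 ± 0.58, adjusted p = 5.54e-04) that was -3.73 without P28 replicate 2. Its earlier rise from 45.0 ± 23.7 at P1 to 171 ± 22 at P7 had an adjusted p of 0.0446, which passed the threshold no longer when any 1 of 8 libraries was left out (0.0629 to 0.192), all but P1 replicate 2 and those of P28. Adamts4 was highest at P14, as were the oligodendrocyte and granule neuron marker sums, whose part in this result was not tested. Mmp14, a membrane-bound metalloproteinase, fell 1.68-fold from P7 to P14 (-0.75 ± 0.18, adjusted p = 0.00808) and rose 2.81-fold to P28 (1.49 ± 0.18, adjusted p = 3.11e-04). Mmp9 had 22.1, 14.3 and 6.82 at P1 and 0 reads at P28, at least 11.3-fold lower (adjusted p = 0.0413), a call lost without any 1 of 8 libraries (0.0510 to 0.124), namely those of P1 and P28, P7 replicate 3 and P14 replicate 3.

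Of 26 tested receptors and binding partners, 2 rose and 9 fell from P1 to P7 (all genes 3.47% and 4.24%), 8 rose and 1 fell to P14 (10.8% and 10.0%), and 6 rose and 1 fell to P28 (5.68% and 8.76%). Over the whole interval 9 were higher and 9 lower (14.6% and 20.0%). Ptn encodes pleiotrophin, the secreted ligand of Ptprz1, and was the most abundant of the list, with 52355, 43738 and 33850 normalized counts at P1 and 11258, 9589 and 12077 at P7. It fell 3.90-fold at that step (-1.96 ± 0.17, adjusted p = 2.07e-05), where Ptprz1 fell 3.42-fold, and stayed 2.67-fold below P1 at P28 (-1.42 ± 0.17, adjusted p = 2.77e-05), where Ptprz1 had a log2 difference of -0.08. Mdk, midkine, the related ligand, rose 2.81-fold from P14 to P28 (1.49 ± 0.31, adjusted p = 0.00744). Ptprs, a receptor phosphatase for chondroitin sulfate, had 5956, 5863 and 6648 at P7 and 1630, 1859 and 1761 at P14, a 3.52-fold fall (-1.81 ± 0.19, adjusted p = 1.24e-05), and Rtn4rl1, a Nogo receptor relative, rose 3.21-fold at the same step (1.68 ± 0.38, adjusted p = 0.00601).

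Among the proteoglycans of that list, Cspg5, also called neuroglycan C, fell 5.49-fold from P1 to P7 (-2.46 ± 0.30, adjusted p = 1.90e-04). Cspg4, or NG2, which marks oligodendrocyte precursors and pericytes, had 610, 699 and 533 normalized counts at P1 and 48.2, 0 and 207 at P28 (adjusted p = 0.00940), with a log2 fold change of -4.82 ± 1.27 that was -5.41, -2.60 and -6.45 without P28 replicates 1, 2 and 3. The oligodendrocyte precursor marker sum, which does not hold Cspg4, was also lowest at P28, and its part in this result was not tested. Of the cell adhesion molecules that bind lecticans or tenascins, Cntn2 rose 13.6-fold from P1 to P7 (3.76 ± 0.43, adjusted p = 1.29e-04), or by 3.10 on the log2 scale without P1 replicate 2. At that step the mean sum of 5 granule neuron precursor markers went from 3327 to 10143 and the mean oligodendrocyte sum from 1797 to 17816. The part of either in the Cntn2 result was not tested. Nfasc, neurofascin, an adhesion molecule of nodes of Ranvier, had 1242, 507 and 968 at P1 and 9075, 9251 and 5850 at P28, a 9.30-fold rise (3.22 ± 0.27, adjusted p = 8.62e-07). Its mean was highest at P14, at 11974, as were the oligodendrocyte and granule neuron marker sums, whose part in this result was not tested. L1cam fell 3.68-fold from P14 to P28 (-1.88 ± 0.42, adjusted p = 0.00930, and 0.0522 without P14 replicate 3). Ncam1 was the second most abundant of the list per kilobase and fell 1.67-fold from P1 to P7 (-0.74 ± 0.14, adjusted p = 0.00537).

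**Figure D5:**
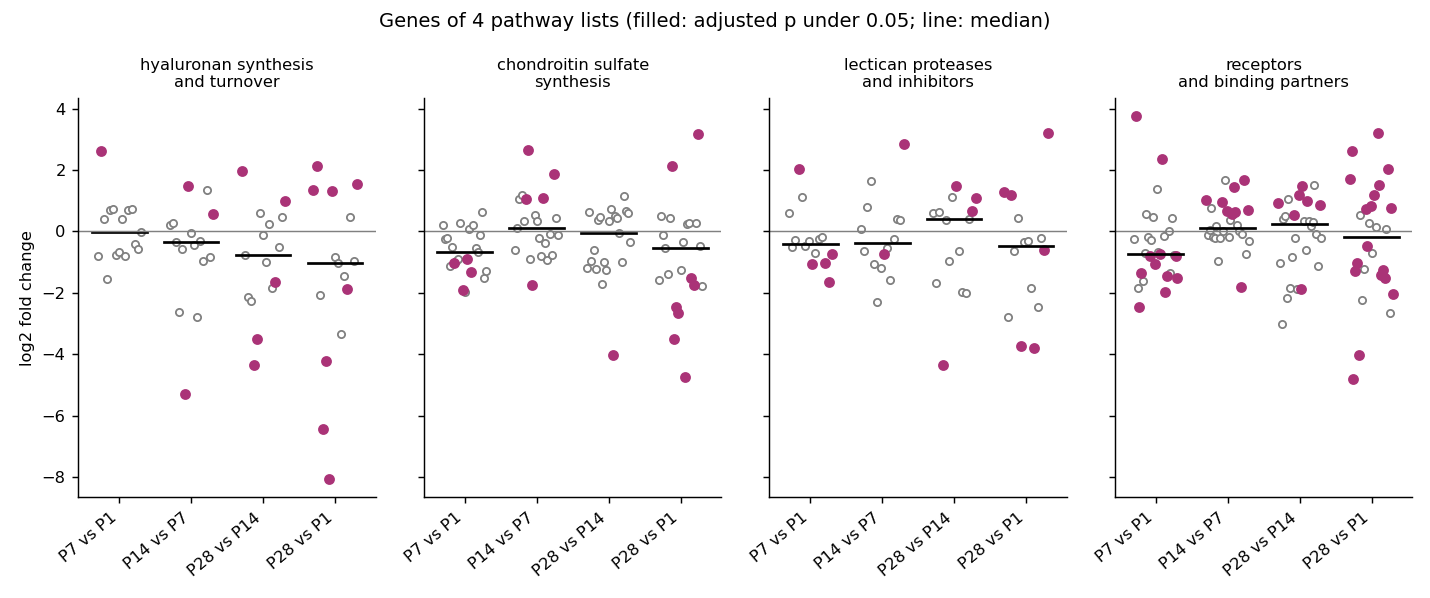
The log2 fold change of each tested gene of the 4 lists in the 4 comparisons; filled points have an adjusted p under 0.05 and the line is the median of the list. From P1 to P7, 4 of 4 called genes of chondroitin sulfate synthesis and 9 of 11 called receptors and binding partners lie below 0. Over all genes tested, 655 of 1191 called genes did. Among the 4, Chst3 and Chsy1 lost their calls when certain single libraries were left out. From P7 to P14, 8 of 9 called receptors and binding partners lie above 0, where 1676 of 3227 called over all genes did. The lowest point is Hmmr, at -8.07 for P28 against P1.

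Over the 12 libraries, the genes whose log2 levels ran most nearly parallel to each of the 10 were found among 12059 others with a mean of at least 50 normalized counts, or 12060 for Acan and Hapln4, which have lower means themselves. These correlations describe 4 time points of 3 libraries each, which share the differences between time points. Ncan ran with Hmga2 (r = 0.977), Veph1 and Nnat, and Tnc with Fabp7 (r = 0.957), a fatty acid binding protein of radial glia, Ptprf and Acot1. Bcan ran with Nrbp2 (r = 0.960), Csdc2 and Qk, Ptprz1 with Fads2 (r = 0.988), Mfge8 and Pcdh10, and Vcan with Hnrnpd (r = 0.974), Set and Fnbp1l. Tnr ran with Adarb1 (r = 0.979), Chn2 and Sema4d. Hapln2 ran with Cnp (r = 0.979), Serinc5 and Gpr37, Hapln1 with B4galt7 (r = 0.907), H2-Ab1 and Sebox, Hapln4 with Ruvbl2 (r = 0.964), Tox4 and Smad1, and Acan with Foxp1 (r = 0.873), Rcc2 and Traf7. The genes nearest to the low members Acan and Hapln1 were thus less close than those nearest to the abundant members, whose r was at least 0.957. This did not hold for Hapln4, which was also low but whose nearest gene had an r of 0.964.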

How the data were processed

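RNA of GFP-positive cerebellar cells was sequenced in 12 libraries, 3 at each of 4 time points. The authors aligned paired-end reads to mm10 with STAR (2.5.0a in the submitters' processing notes), counted reads per gene on UCSC transcripts with GenomicAlignments, and deposited normalized counts, that is, a signal divided by 1 DESeq2 size factor per library (DESeq2 1.30.1 in those notes). Whether strand was used in counting is not given in the sources used here. Each of the 12 columns is named P28 in the table, so groups rest on the labels, and 0 columns were left unmapped. Division by the smallest value of a column returned whole reads for 100% of values within 0.01, with 6399499 to 14733985 reads per library. No pair of libraries of a time point agreed within sampling noise. Of the symbols, 27 had turned into dates and were left as they stood.

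The main test was limma 3.58.1 (R 4.3.3) on log2(value + 1), with 1 mean per time point fitted over the 12 libraries and a mean-variance trend, for the 15464 genes that reached 10 normalized counts in 3 or more libraries. P-values were adjusted by Benjamini-Hochberg over all genes tested, and an adjusted p under 0.05 was called. Fold changes are on the log2(value + 1) scale, which can understate those of low genes. Where libraries spread widely it can also exceed the ratio of the means. Hapln4 had means of 24.9 at P7 and 25.3 at P14 but a log2 fold change of -1.63. A group with 0 reads was given a floor of 3 reads over the group, and the reads of the other group were pooled for the fold against it. Count tests on the recovered reads were run as alternatives (edgeR 4.0.16, DESeq2 1.42.0), and edgeR with TMM called 1090, 3046, 1977 and 4920 genes in the 4 comparisons where limma called 1191, 3227, 2232 and 5350. Further alternatives were other pseudocounts (0.1 and 10), scalings and filters, fits of only 2 time points, a replicate block, an unadjusted p under 0.05 with a log2 fold change over 0.75, and leaving out each library. The fits were tested on simulated data. Lengths and positions came from the GENCODE annotation of GRCm38 and promoter windows from RefSeq.

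The 10 genes, the gene lists and the tests were chosen with earlier results of these data known. Besides the 10 genes and Hapln3, Tnn and Tnxb, the text names, for each list and comparison, the called gene with the largest rise and the one with the largest fall whose libraries did not overlap between the time points, the 2 most abundant genes of each list per kilobase, and the 3 genes most like each of the 10. A comparison of the protein sequences was planned and not run. Of the oligodendrocyte markers planned, 1 is not reported here and was left out of the sum.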

Additional observations from a re-analysis of the deposited data

How the results depend on the processing

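Of the 16 calls among the 10 genes, 15 held in each alternative that gave a value, although Hapln2 had none with at least 10 reads required in every library. The remaining call, Tnr from P7 to P14, was lost with library totals alone, at a log2 fold change threshold of 0.75, and without P7 replicate 1, P14 replicate 2 or P14 replicate 3. From P14 to P28, 1 of the 10 was called, against 3 with library totals alone, 2 at an unadjusted p under 0.05 with the fold threshold, and between 1 and 2 when single libraries were left out. Library totals alone moved the median over all genes tested, on the log2 scale, to 0.10 for P7 against P1, -0.34 for P14 against P7, -0.35 for P28 against P14 and -0.66 for P28 against P1. With that scaling Tnc also passed from P7 to P14 (-0.74, adjusted p = 0.0464), and Hapln1 turned to -0.32 for P28 against P1. Of the 79 other genes of the network and families tested, 21 were called from P1 to P7, against 35 when only these time points were fitted and between 11 and 25 when single libraries were left out. Hapln4 had a log2 fold change for P14 against P7 of 0.033 with edgeR and TMM, 0.015 with edgeR and the authors' size factors and 0.020 with DESeq2, where limma gave -1.63. Leaving out single libraries changed the sign of uncalled values, with ranges from -0.20 to 0.0076 for Bcan and from -0.18 to 0.050 for Ptprz1 (both P28 against P1), from -0.67 to 2.26 for Acan (P28 against P14), from -0.93 to 0.48 (P7 against P1) and from -1.03 to 1.28 (P28 against P1) for Hapln1, and from -2.44 to 0.63 for Hapln4 (P28 against P14). The cause of these changes was not tested.

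Libraries of the same replicate number deviated together at most weakly. The 18 pairs of libraries with the same number at different time points had correlations of their deviations from -0.029 to 0.139, with 1 over 0.1. The 36 pairs with different numbers ran from -0.105 to 0.054, with 0 over 0.1. Of the 12 libraries, 9 correlated best with their own number, and what these share was not tested. A replicate block left the counts for the 10 genes at 5, 5, 1 and 5 and gave 21, 22, 18 and 39 for the other genes of the network, against 21, 21, 17 and 41 without it. Over all genes, the 1191 calls from P1 to P7 became 1797 with DESeq2, 2820 when only these time points were fitted and between 651 and 775 without P1 replicates 1 or 2 or any P7 library, and the 2232 calls from P14 to P28 became 766 when only these time points were fitted, 1421 without P14 replicate 1 and 1242 without P14 replicate 3. Acan, Hapln1, Hapln3, Hapln4 and Tnn often rested on a few reads in a library. Hapln4 had 0, 6 and 64 reads in P14 replicates 1, 2 and 3, whose totals were 9573905, 9856910 and 9470510. The part of depth in the spread of these genes was not tested.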
